A study of Mus musculus with 31 samples.

Results

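The livers of Ames dwarf mice were compared with those of wild-type mice at 4 months of age, with 5 arrays for each genotype. These are the 10 arrays, of 31 in the series, whose titles name a 4 month dwarf or wild-type liver. The comparison covers 15421 genes, and a difference is always the dwarf minus the wild type. The Ames dwarf is a mutant mouse, and the series' title calls these mutants long lived. The labels give neither the strain background, sex, diet nor the time of day of either genotype. Each array carries the name of 1 animal, and about 10 mg of frozen liver was extracted per sample. The other 21 arrays, from mice of 10 and 22 months, were used to estimate each gene's spread and to compare the genotype difference between ages.

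Ames dwarf mice lack growth hormone, prolactin and thyroid-stimulating hormone of the pituitary. Growth hormone reaches the liver through its receptor, the kinase JAK2 and the transcription factor STAT5B, and drives the synthesis of IGF-1, which circulates bound to IGFBP3 and the acid-labile subunit. In male mice growth hormone is released in pulses, and this pattern sets many sex differences of liver enzymes and urinary proteins. Thyroid hormone acts on the liver through nuclear receptors that drive, among others, deiodinase and malic enzyme. The mutation is carried through life, so the design compares lifelong pituitary hormone deficiency with its absence, and does not separate one hormone from another.

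The values are array signals on a linear scale, and tests were made on log2 of the signal plus 16 with limma. A gene is said to have risen, fallen or passed the test when its adjusted p (Benjamini-Hochberg over all 15421 genes) was under 0.05. On the 10 arrays the median signal ran from 168.1 to 204.8. The 40th percentile, used as the line below which a signal is called low, ran from 115 to 140.5. Signals correlated at 0.906 to 0.927 among dwarf arrays, 0.901 to 0.914 among wild-type arrays and 0.884 to 0.906 between the genotypes. The first principal component of these arrays held 25.4% of the variance. On it the dwarf arrays lay between -35.6 and -32.7, wild-type replicates 1, 2, 3 and 5 between 36.3 and 37.6, and wild-type replicate 4 at 23.0. Replicate 4 stood apart from the other wild types at 44 of the genes that passed the test, against 9 to 21 such genes for each of the other arrays, so results whose call or size it decides are also given without it. Over all genes, 1507 passed the test without it and 1538 with it. The Y-linked gene Eif2s3y gave a signal of 732 to 1031 on all 10 arrays, and of the 3 Xist probe sets 2 stayed at or below 131.7 and the third read 237 to 844. The pituitary gene Gh stayed at or below 268 on each of its probe sets. The hepatocyte genes Alb, Apoa1 and Ttr, all of very high signal, were measured at like levels, with log2 differences of 0.02, 0.07 and 0.03. Of the 17 hepatocyte genes tested, 1 rose, Ahsg (0.43), and 1 fell, Foxa1 (-1.22). Apoc3 (-0.33) did not pass, though all its dwarf values lay below all its wild-type values. In bulk liver, fewer cells of a type and less RNA per cell cannot be told apart.

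The dwarf liver at 4 months differed from the wild-type liver at 1538 of 15421 genes, or 9.97%. Of these, 862 genes (5.59%) rose and 676 (4.38%) fell. The counts given below for each gene list are to be read beside these shares, since a few calls in a list may not exceed them. A rise of at least 1 on the log2 scale was seen at 246 genes (1.6%) and a fall of that size at 217 (1.41%). At 46 genes the difference exceeded 3 on the log2 scale. At 697 genes (4.52%) all 5 dwarf arrays lay above all 5 wild-type arrays, and at 550 (3.57%) they all lay below. The median difference of all genes was 0.04. When the arrays were instead centred on their median, 574 genes rose and 640 fell, so the share of rises among the calls moved from 56.0% to 47.3%.

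**Figure D1:**
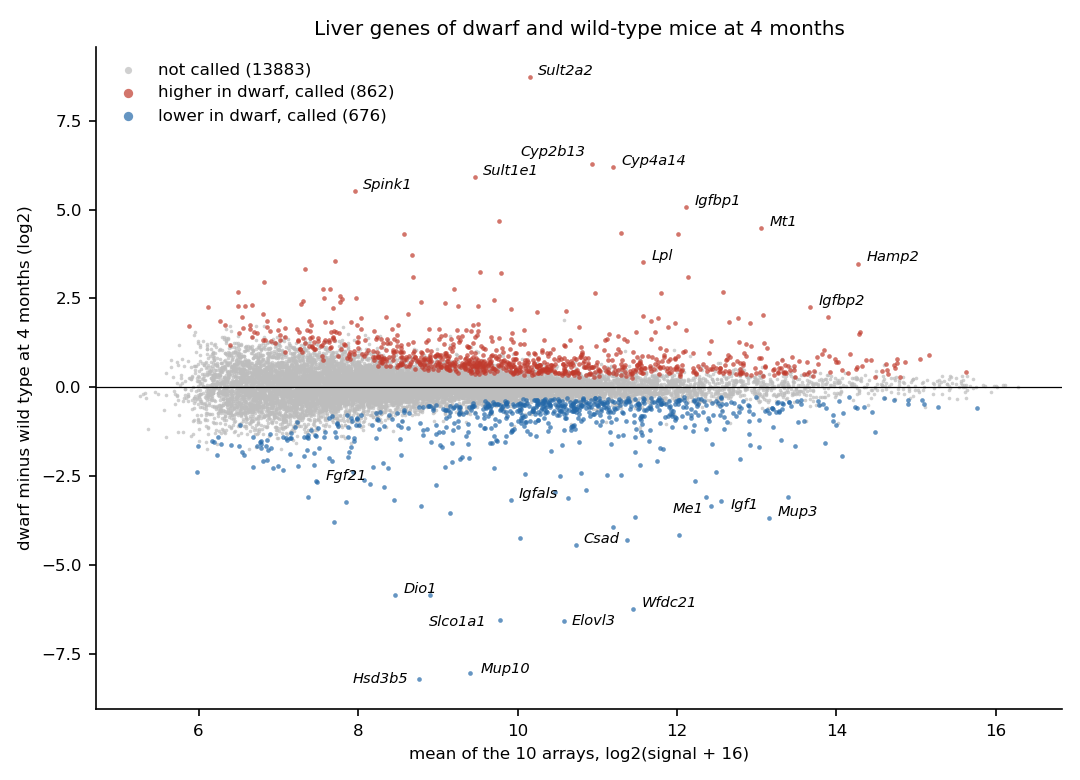
Each gene's difference at 4 months (dwarf minus wild type, log2, vertical axis) against its mean level on the 10 arrays (log2 signal, horizontal axis), with the 862 genes that rose and the 676 that fell in colour. The largest differences in both directions, such as Sult2a2 at 8.73 and Hsd3b5 at -8.21, lie far outside the cloud of the other genes.

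Among the genes whose 5 dwarf arrays all lay above all 5 wild-type arrays, the largest rise was that of Sult2a2, a sulfotransferase that acts on steroids and bile acids. Its signal was 16619.9, 24379.5, 27119.9, 28630.5 and 22439 on the dwarf arrays and 9.3, 81.7, 48.9, 14.0 and 91.2 on the wild-type arrays (log2 difference 8.73, SE 1.02, adjusted p = 2.02e-07). Every wild-type value was low, so the size of the difference depends on the constant added before taking logs: it was 9.35 with 1 and 7.77 with 64. Next came Cyp2b13, a cytochrome P450 of female mouse liver, at 13516, 16666, 16708, 21804 and 18051 on the dwarf arrays and 296, 84.6, 262, 777 and 61.9 on the wild-type arrays (log2 difference 6.27, SE 0.67, adjusted p = 3.84e-08). The highest wild-type value of Cyp2b13 was that of replicate 4, and each dwarf value was over 10 times as high. These were followed by Cyp4a14, a fatty acid hydroxylase, at 6.19, the estrogen sulfotransferase Sult1e1 at 5.91 and the trypsin inhibitor Spink1 at 5.52. The wild-type values of Spink1 were all low too, and its difference was 6.31 with a constant of 1 and 4.35 with 64. The hydroxyacid oxidase Hao2 rose by 4.68 and the P450 Cyp2b9 by 4.35 (5.02 without wild-type replicate 4). The keratin Krt23 rose by 3.72 and the protease inhibitor Serpinb1a by 3.56. For Serpinb1a the difference was 3.99 with a constant of 1 and 2.79 with 64. Rgs16, a regulator of G-protein signalling, rose by 4.31, from 16.9 to 254 in wild type to 623 to 4998 in dwarf. The others among the 15 largest rises, Igfbp1, Mt1, Mt2, Lpl and Hamp2, are described with their groups.

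The largest fall with groups that did not overlap was that of Hsd3b5, a steroid dehydrogenase of male mouse liver. Its signal was 8.5, 6.1, 9.4, 14.0 and 9.1 on the dwarf arrays and 10695, 15842, 17418, 507 and 15388 on the wild-type arrays (log2 difference -8.21, SE 1.01, adjusted p = 5.31e-07). Wild-type replicate 4 gave a much lower value than the other wild types, and without it the log2 difference was -9.17. Mup10, a major urinary protein that carries pheromones in male urine, was 17.7, 8.0, 36.1, 17.7 and 71.8 on the dwarf arrays and 17737, 7852, 16176, 6130.4 and 11874 on the wild-type arrays (log2 difference -8.05, SE 0.40, adjusted p = 7.35e-16). The dwarf values of Mup10 and Hsd3b5 were all below the low-signal line, so the sizes are again tied to the added constant (-8.83 and -9.53 with 1, -6.92 and -6.71 with 64). Elovl3, a fatty acid elongase, stood at 164, 75.2, 178, 212 and 111 on the dwarf arrays and 17106, 15464, 19105, 10888 and 13748 on the wild-type arrays, with no overlap. Wfdc21, a small protease-inhibitor-like protein, fell by 6.24, the transporter Slco1a1 fell by 6.54, the receptor Paqr9 fell by 3.93 and the transcribed pseudogene Serpina4-ps1 fell by 5.85. The other 8 of the 15 largest falls were Dio1, Csad, Cyp7b1, Mup5, Cyp4a12a, Ugt2b38, Mup3 and Keg1, at -5.85 to -3.66. All 30 of these genes passed the test in each of the 10 fits that left out 1 array of 4 months. Probes for Mup, Cyp2b, Sult2a, Serpina, Ugt2b and Gst genes may also bind RNA of close relatives, so such values may hold more than 1 gene.

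**Figure D2:**
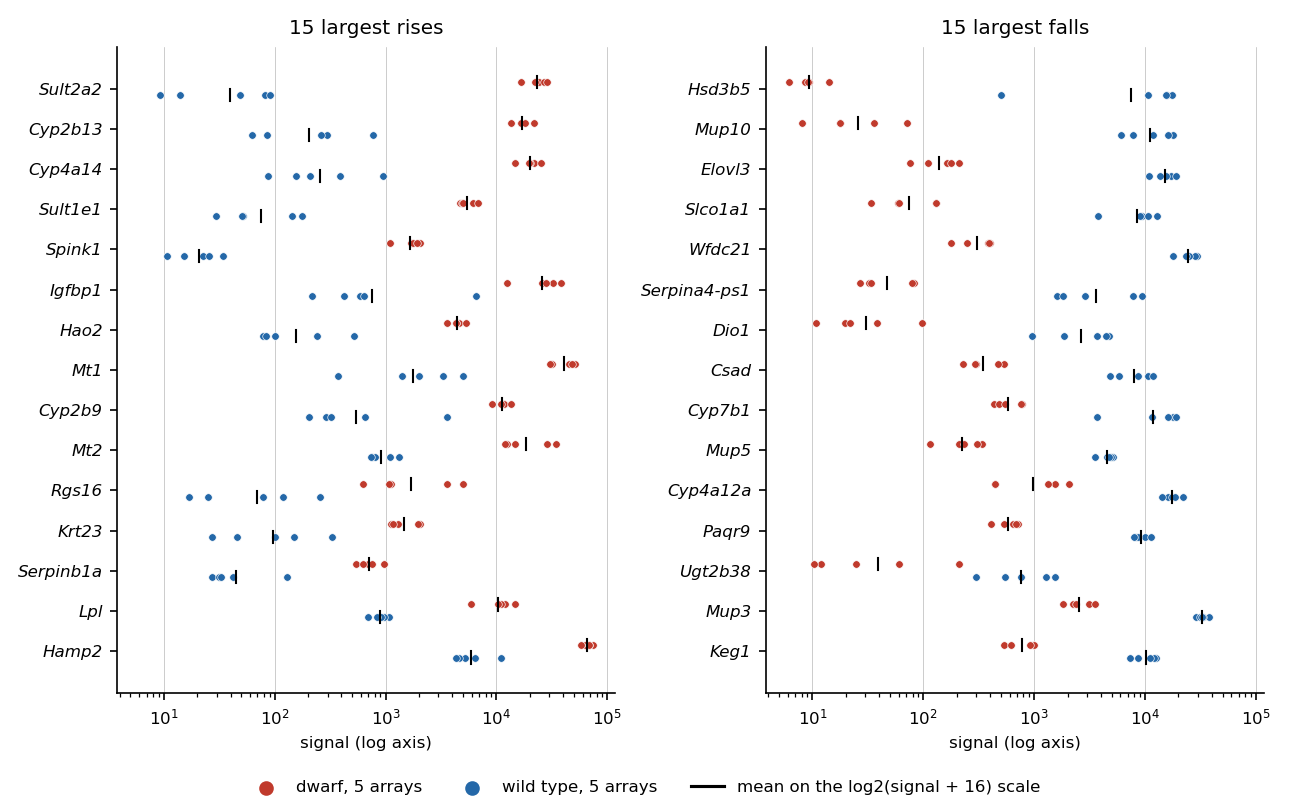
Signal (horizontal axis, logarithmic) of the 15 largest rises and 15 largest falls at 4 months, with 1 point per dwarf or wild-type array and the group mean on the log2(signal + 16) scale as a bar. The dwarf and wild-type points of each gene do not overlap, and the wild-type point of Hsd3b5 at 507 is replicate 4.

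In the growth hormone and IGF-1 axis, among secreted proteins, Igf1 and Igfals fell and Igfbp1 and Igfbp2 rose. Igf1, the growth factor itself, gave 1862, 2318, 2548, 1315 and 2013 on the dwarf arrays and 18040.0, 17864, 22601, 15173 and 17433 on the wild-type arrays (log2 difference -3.19, SE 0.27, adjusted p = 3.14e-10). The mean wild-type signal was 9.06 times the mean dwarf signal, and the groups were far apart. Its other probe sets, each tested on its own, gave -3.33, -3.76 and -3.90. Igfals, the acid-labile subunit that prolongs the life of IGF-1 in blood, gave 354, 171, 306, 374 and 374 on the dwarf arrays and 2791, 3011, 3208, 2417 and 3030.0 on the wild-type arrays (log2 difference -3.17, SE 0.24, adjusted p = 2.72e-11), with a wild-type mean 9.15 times the dwarf mean. All 5 dwarf values of both genes were lower than any wild-type value, and wild-type replicate 4 was the lowest of its group for each.

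Igfbp1 and Igfbp2 moved the other way. Igfbp1, which limits free IGF-1 and is known to rise in fasting, gave 25668, 32129, 38230.1, 12544 and 27785 on the dwarf arrays and 585, 216, 637, 6507 and 425 on the wild-type arrays (log2 difference 5.07, SE 0.72, adjusted p = 6.44e-06). Wild-type replicate 4 alone among the wild types exceeded 1000, and without it the log2 difference was 5.84. Igfbp2, another carrier, gave 20014, 29256, 28512, 35538 and 31725 on the dwarf arrays and 6187, 9171, 6642, 3278 and 5884 on the wild-type arrays (log2 difference 2.26, SE 0.32, adjusted p = 7.17e-06), and its groups did not overlap. Igfbp3 (0.13) and Igfbp4 (-0.18) did not pass the test. Igf2, the fetal growth factor, was the third rise among the ligands and carriers, at 1.52, adjusted p = 0.0442, but lost its call in 8 of the 10 fits without 1 array. In all, 3 of the 10 ligands and carriers tested rose and 2 fell, or 50%.

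Receptors and signal carriers moved less. Of 17 genes tested, 2 rose, 2 fell and the median was 0.02. The transcription factor Stat5a fell (-0.74, adjusted p = 0.0283), but lost its call in 5 of the 10 fits without 1 array, wild-type replicate 4 among them. The kinase Jak2 (-0.34) and the close relative Stat5b (0.15) did not pass. The IGF-1 receptor Igf1r (0.41) passed only without dwarf replicate 2 (0.54, adjusted p = 0.0469). For the growth hormone receptor Ghr the call depended on the probe set. The one that stood for the gene gave -0.13 and did not pass, while the other 2, tested among all probe sets, gave -0.63 (adjusted p = 0.000357) and -0.64 (adjusted p = 0.0137). Irs2, an adaptor of the insulin receptor, rose, with 542, 464, 837, 242 and 618 on the dwarf arrays and 234, 53.8, 228, 163 and 38.9 on the wild-type arrays (log2 difference 1.96, SE 0.51, adjusted p = 0.00908). The lowest dwarf value of Irs2 lay just above the highest wild-type value. Insr, the insulin receptor, rose by 0.49 on 1 of its 3 probe sets, and the others, at 0.28 and -0.02, did not pass. Pik3r1, the regulatory subunit of the kinase downstream of it, fell by 0.88.

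The feedback inhibitors Socs2 and Cish are textbook targets of STAT5, and neither passed on the probe set that stood for it. For Socs2 that probe set gave -0.26, and another of its 4, tested among all probe sets, gave -1.73 with an adjusted p of 0.000135. Cish was at -1.09 and read 607, 392, 742, 785 and 932 on the dwarf arrays and 729.9, 4244, 862, 1162 and 1936 on the wild-type arrays. Its groups overlapped, since 3 dwarf arrays read more than the lowest wild type. Cish passed in 2 of the 10 fits without 1 array, without wild-type replicate 1 and without replicate 3.

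**Figure D3:**
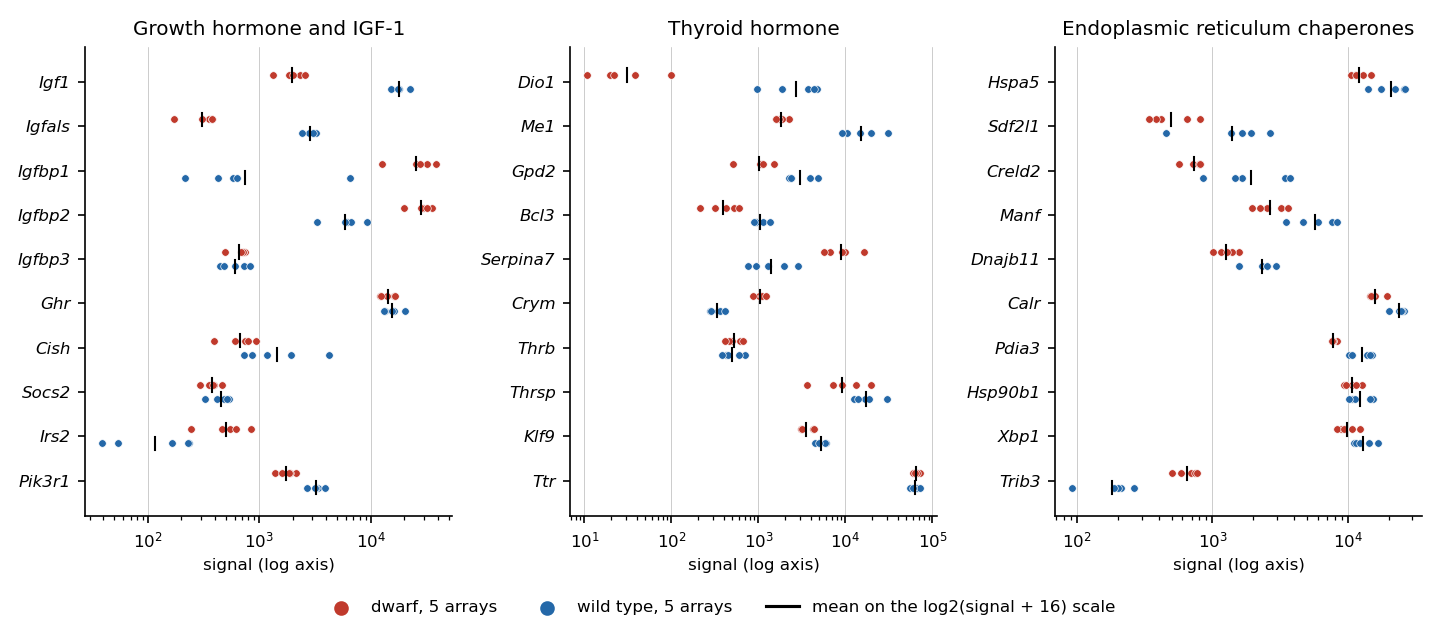
Signal (horizontal axis, logarithmic) on the 5 dwarf and 5 wild-type arrays of 4 months, 1 point per array, with the group mean on the log2(signal + 16) scale as a bar. The genes are of the growth hormone and IGF-1 axis (left), thyroid hormone (middle) and the unfolded protein response (right). Igf1, Igfals, Dio1 and Me1 are lower and Igfbp1, Igfbp2, Serpina7 and Trib3 higher on every dwarf array than on any wild-type array, while the groups overlap for Cish and Hspa5.

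STAT5 binds the palindrome TTCNNNGAA, and that spacing was looked for in the 250 bases before each gene's start, in RefSeq promoters of the mouse build GRCm38.p6. The motif reads the same on both strands. Shares are of genes, and a gene with several listed windows counts when any of them holds the motif. It was present in 8.13% of the 27025 genes with a promoter and in 7.35% of the 12339 such genes tested. The share was 5.04% for genes that rose and 7.9% for genes that fell. Of the 25 growth hormone and IGF-1 genes with a promoter, 3 held it (12%), and Igfals was the only one of these 3 that passed the test. Of the 18 male-biased genes that fell, 14 had a promoter and 2 held the motif (14.3%), C8a and Keg1. Of the 11 female-biased genes that rose, 8 had a promoter and 1 held it (12.5%), Hamp2. The promoters of Igfals (chr17:24877594-24877843, plus strand, 1 of 3 listed windows of the gene) and Keg1 (chr19:12695540-12695789, plus strand) are shown because both genes fell several-fold, with the motif in capitals.
Igfals: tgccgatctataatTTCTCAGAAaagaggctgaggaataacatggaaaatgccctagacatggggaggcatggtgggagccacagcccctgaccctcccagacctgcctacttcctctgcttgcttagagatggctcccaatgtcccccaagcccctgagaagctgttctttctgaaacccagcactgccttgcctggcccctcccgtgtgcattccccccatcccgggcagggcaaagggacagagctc
Keg1: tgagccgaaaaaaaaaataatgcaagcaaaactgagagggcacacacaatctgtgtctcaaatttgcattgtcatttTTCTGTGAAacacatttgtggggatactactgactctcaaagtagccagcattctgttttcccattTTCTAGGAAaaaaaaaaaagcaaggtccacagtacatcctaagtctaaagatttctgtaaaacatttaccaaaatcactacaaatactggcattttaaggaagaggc
The match starts 236 bases before the start of Igfals and 173 and 107 bases before that of Keg1. A match is a description of the letters, and binding was not measured.

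Genes known to be higher in male mouse liver were lower in the dwarf, and many of those known to be higher in female liver were higher. Of 23 male-biased genes tested, 18 fell, 0 rose and the median difference was -3.10, against 0.04 for all genes. Of 20 female-biased genes, 11 rose, 1 fell and the median was 1.44. Without wild-type replicate 4 the counts were 19 of 23 and 12 of 20. Both lists were written with earlier results of these data known.

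Male-biased genes that fell beyond the top ranks were the acetyltransferase Nat8 (-3.35), the peroxisomal hydrolase Nudt7 (-3.10), the complement regulator Susd4 (-2.28) and the growth factor receptor Egfr (-1.37). Of the other 6 probe sets of Egfr, 4 fell too, with differences of -1.11, -2.82, -3.44 and -3.49, and 2 did not pass. Without any 1 dwarf array the gene's highest probe set was another one, with a difference of -3.62 to -3.39. Keg1, an acyltransferase-like gene of kidney and liver, gave 978, 989, 536, 613 and 919 on the dwarf arrays and 8680.3, 12445, 12036, 7373 and 10977 on the wild-type arrays. These groups did not overlap, and the highest dwarf value was far below the lowest wild-type value. The P450 Cyp2d9 (-0.99), which passed when only the 10 arrays of 4 months were fitted (adjusted p = 0.000278), and Bcl6 (0.23), a repressor that is male-biased in liver, did not pass. The 3 Mup genes tested fell, and of 4 steroid dehydrogenases of the Hsd3b family Hsd3b5 and Hsd3b2 (-2.44) fell.

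Female-biased genes that rose included the lipoprotein receptor Vldlr by 3.24 and Cyp39a1, a hydroxylase of bile acid synthesis, by 3.11. The monooxygenase Fmo2 rose by 2.78 and the peroxisomal transporter Abcd2 by 1.46. Hamp2, a paralogue of the iron hormone hepcidin, gave 63337, 73856, 57796, 68064 and 68972 on the dwarf arrays and 5167, 11027, 4565, 4314 and 6422 on the wild-type arrays (log2 difference 3.48, SE 0.37, adjusted p = 2.42e-08). Its groups did not overlap. Its paralogue Hamp, hepcidin itself, read 24380.1, 29195, 26100.0, 30863 and 36872 on the dwarf arrays and 42600.5, 60298, 46442, 28561 and 42927 on the wild-type arrays and did not pass (-0.56, adjusted p = 0.119). Without wild-type replicate 4 it did, at -0.70 (adjusted p = 0.0447). Cux2, a transcription factor of female liver, was at 0.41 and did not pass. Gna14, a G-protein subunit, was the member that fell (-1.47).

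The list of genes that respond to thyroid hormone or handle it changed in both directions. Of 18 tested, 4 rose and 5 fell, a share of 50%. The rises were the binding proteins Serpina7 and Crym, the receptor Thra (0.69) and the transporter Slc16a10 (0.58). The falls were Dio1, Me1, Gpd2, Bcl3 and Klf9 (-0.55). In all 10 fits without 1 array, 2 of the 4 rises and 4 of the 5 falls passed. Dio1, the deiodinase that activates thyroxine and is itself induced by thyroid hormone, gave 19.5, 98.0, 10.7, 21.7 and 37.9 on the dwarf arrays and 4687, 953, 3662, 4399 and 1863 on the wild-type arrays (log2 difference -5.85, SE 0.56, adjusted p = 3.15e-09). All dwarf values of Dio1 were below the low-signal line, while the wild types spread over a wide range. Me1, malic enzyme, which supplies NADPH for fat synthesis, gave 2266, 1886, 1726, 1584 and 1594 on the dwarf arrays and 14797, 10354, 19554, 30693 and 9034 on the wild-type arrays (log2 difference -3.08, SE 0.37, adjusted p = 3.18e-07), with no overlap. The mitochondrial glycerol phosphate dehydrogenase Gpd2 fell by 1.55 and the regulator Bcl3 fell by 1.39. Thrsp (-0.95), a lipogenic protein known for its thyroid response, and the receptor Thrb (0.07) did not pass.

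Serpina7, thyroxine-binding globulin of plasma, rose, with 10003, 9071, 16408, 6709 and 5643 on the dwarf arrays and 765, 2867, 944, 1293 and 1981 on the wild-type arrays (log2 difference 2.66, SE 0.43, adjusted p = 5.85e-05). Every dwarf value was higher than every wild-type value. Crym, a thyroid hormone binding protein of the cytosol, rose by 1.60. In the same serpin family, Serpina6, the corticosteroid-binding globulin, gave 26410.1, 34239, 27903, 32999.8 and 30317 on the dwarf arrays and 8719, 6735, 9056, 7647 and 6325 on the wild-type arrays (log2 difference 1.99, SE 0.25, adjusted p = 1.11e-06), again without overlap. The adipokine serpin Serpina12 fell by 3.18 and Serpina11 fell by 1.39. Of the 12 Serpina genes tested, 3 rose and 4 fell.

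Among 24 nuclear receptors and liver transcription factors, 3 rose and 3 fell, and the main hepatocyte factor Hnf4a was at -0.03 and did not pass. Ppargc1a, a coactivator of gluconeogenesis and mitochondrial genes, gave 2223, 1849.6, 2624, 3639.7 and 2517 on the dwarf arrays and 588, 331, 686, 813 and 551 on the wild-type arrays (log2 difference 2.11, SE 0.24, adjusted p = 1.57e-07). All 5 dwarf values were over the highest wild-type value. The xenobiotic receptor Nr1i2 rose by 0.78. Onecut1, known as HNF6, a transcription factor of liver and bile duct, gave 280.2, 55.3, 164, 39.5 and 104 on the dwarf arrays and 473, 1843, 591, 388 and 1943 on the wild-type arrays (log2 difference -2.81, SE 0.57, adjusted p = 0.000947), and 2 wild types were over 3 times the other wild types. The estrogen receptor Esr1 gave 479, 142, 487, 143 and 438 on the dwarf arrays and 1986, 983, 1485, 1378 and 695 on the wild-type arrays (log2 difference -2.01, SE 0.32, adjusted p = 3.65e-05). Both fell without overlap between the groups. From the lists of hepatocyte and fetal liver genes, Foxa1 fell by 1.22 and Zbtb20, a repressor of fetal genes, fell by 0.78.

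Lipid genes changed in both directions. In fatty acid synthesis 2 of 27 rose and 5 fell, and in cholesterol synthesis 0 of 22 rose and 3 fell. In fatty acid oxidation 6 of 35 rose and 3 fell. Over all genes 5.59% rose and 4.38% fell. In all 10 fits without 1 array, 3 of the 5 falls in fatty acid synthesis and 1 of the 3 in cholesterol synthesis passed. The regulators Srebf1 (-0.01) and Ppara (-0.45), the synthase Fasn (-0.58) and the mitochondrial gate Cpt1a (-0.07) did not pass. Without wild-type replicate 4 the difference of Fasn was -0.36. Scd2, a desaturase, rose by 3.21. Insig2, which holds back cholesterol synthesis, fell by 1.31, and Plin2, a coat protein of lipid droplets, fell by 1.07. Fgf21, a fasting hormone of the liver, gave 125, 23.3, 23.9, 48.5 and 113 on the dwarf arrays and 227, 256, 616, 1423 and 291 on the wild-type arrays (log2 difference -2.66, SE 0.61, adjusted p = 0.00353). The dwarf values of Fgf21 were all low signals, and wild-type replicate 4 was the highest of its group.

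Of 24 genes of lipoproteins and their uptake, 4 rose and 5 fell. Lpl, lipoprotein lipase, which frees fatty acids from triglyceride in plasma and is little expressed in adult hepatocytes, gave 12070.5, 11046, 14667, 5849 and 10288 on the dwarf arrays and 1071, 963, 902, 694 and 837 on the wild-type arrays (log2 difference 3.52, SE 0.39, adjusted p = 9.17e-08). The dwarf values were over 5 times the highest wild-type value. Scarb1, the HDL receptor, rose by 0.95. Apoa4, an apolipoprotein that follows liver fat, gave 3647, 2917, 2068, 1881 and 2328 on the dwarf arrays and 9696, 14088, 9612, 19200.4 and 15637 on the wild-type arrays (log2 difference -2.39, SE 0.29, adjusted p = 4.75e-07), without overlap. Saa4 fell by 1.21 and Mttp, which loads lipid onto apolipoprotein B, fell by 0.48.

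Of 29 genes of bile acid synthesis and transport, 6 rose and 5 fell and the median was 0.02. The rate-limiting enzyme Cyp7a1 (0.69) and Cyp8b1 (-0.34) did not pass. Cyp7b1, the oxysterol hydroxylase of the alternative pathway, fell by 4.31, with 433, 769, 477, 545 and 766 on the dwarf arrays and 11501, 17728, 15977, 3713 and 19107 on the wild-type arrays. Wild-type replicate 4 was the lowest wild type, and still well above every dwarf value. Cyp39a1 rose, as above, and Cyp27a1 fell by 0.60. Of the uptake transporters, Slco1a1 fell, with 33.8, 131, 59.6, 129 and 61.0 on the dwarf arrays and 9371, 9089, 12762, 3754 and 10569 on the wild-type arrays, while its relative Slco1a4 rose by 2.02. The efflux pump Abcc4 rose by 1.82 and Klb, the co-receptor for FGF15 and FGF21, by 0.64. The anion transporter Slc22a7 fell by 3.11.

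Genes of amino acid metabolism changed mostly upward. Of 27 genes of the urea cycle and amino acid breakdown, 7 rose, 0 fell and the median was 0.28. Oat rose by 0.78, Hal, which breaks down histidine, by 0.69 and Ftcd by 0.47. Of 21 genes of methionine, glycine and taurine metabolism, 5 rose and 1 fell. Cth, which makes cysteine from cystathionine, gave 29559, 32398, 32107, 37242 and 36629 on the dwarf arrays and 12883, 15778, 11224, 8019 and 12942 on the wild-type arrays (log2 difference 1.49, SE 0.16, adjusted p = 4.79e-08), with no overlap. The methionine adenosyltransferase Mat1a rose by 0.78 and Sardh by 0.74. The member that fell was Csad, the decarboxylase on the route from cysteine to taurine, with 538, 468, 299, 229 and 294 on the dwarf arrays and 10629, 8587, 11795, 4809 and 5855 on the wild-type arrays (log2 difference -4.44, SE 0.30, adjusted p = 2.16e-12). The lowest wild-type value of Csad was over 8 times the highest dwarf value. Of 11 genes of serine, glycine and asparagine metabolism 1 rose and 1 fell. They were the folate enzyme Mthfd1, which rose by 0.88, and the serine hydroxymethyltransferase Shmt1 (-0.35, adjusted p = 0.0279), which lost its call in 5 of the 10 fits without 1 array. Glutamine synthetase, described with the liver's zones, fell too.

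Of 28 genes of gluconeogenesis and glycolysis, 7 rose and 1 fell. The aminotransferases Got1 and Gpt rose by 1.21 and 0.83, the pyrophosphorylase Ugp2 by 0.66 and the glucokinase regulator Gckr by 0.50. Pck1, the control enzyme of gluconeogenesis, rose by 0.72, adjusted p = 0.0178, and Pklr, liver pyruvate kinase, fell by 1.02, but Pck1 lost its call in 2 and Pklr in 5 of the 10 fits without 1 array. The last enzyme of glucose output, G6pc (-0.58), did not pass. Of 48 genes of oxidative phosphorylation, 6 rose and 0 fell (12.5%, against 9.97% of all genes). The median was 0.18, against 0.04 for all genes. Of the 48 differences 42 were above 0, against 8312 of 15421 over all genes. Ndufa5, a subunit of complex I, rose by 0.82 and kept its call without any 1 array. With median centring 1 of the 48 rose.

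Detoxification by the liver begins with phase 1 enzymes, mostly P450s, which oxidise drugs, steroids and other compounds. Of 34 genes of phase 1, 10 rose and 5 fell, with a median of 0.33. Cyp2c37 rose by 2.45, Cyp2b10, the usual target of the receptor Nr1i3, by 2.16, Cyp2c38 by 1.16 and Cyp2c50 by 0.71. The aldehyde oxidases Aox3 and Aox1 fell (-1.64 and -1.35), and Cyp4f14 fell by 1.60. Cyp2f2, a P450 of periportal hepatocytes and lung, gave 12309.7, 13550.5, 15790.1, 17799 and 15090.3 on the dwarf arrays and 39650.4, 38055, 38192, 31807 and 31747 on the wild-type arrays (log2 difference -1.27, SE 0.13, adjusted p = 1.09e-08), with no overlap.

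Of 32 glutathione genes and targets of the stress regulator NRF2, 14 rose and 2 fell, with a median of 0.34. Of all 18 glutathione transferases of the Gst family tested, 10 rose and 1 fell. Gsta2 gave 16346, 19882, 18708, 15412 and 17122 on the dwarf arrays and 6716, 5516, 4018, 2177 and 4269 on the wild-type arrays (log2 difference 2.03, SE 0.23, adjusted p = 1.35e-07), without overlap. Gsta4, which clears products of lipid peroxidation, rose by 1.87, Gstm3 by 1.85, Gstt2 by 1.34 and Gstp3 by 1.33. The quinone reductase Nqo1 rose by 1.35. Hmox1 (0.33) did not pass, nor did the regulator Nfe2l2 (0.36, adjusted p = 0.0506), which passed without wild-type replicate 4 (0.45, adjusted p = 0.0138). Gclm, the modifier subunit of the enzyme that makes glutathione, fell, with 5131, 4961, 3818, 4006 and 4537 on the dwarf arrays and 10972, 8098, 12742, 7564 and 6484 on the wild-type arrays (log2 difference -0.99, SE 0.18, adjusted p = 0.000259), again without overlap. Its catalytic partner Gclc (-0.50) passed only without wild-type replicate 5 (-0.65, adjusted p = 0.0438).

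Other conjugating enzymes split by family. Of 10 UDP-glucuronosyltransferases tested, 7 fell and 0 rose, with a median of -0.69. Ugt2b38 fell by 3.80, and its difference was -4.45 with a constant of 1 added before taking logs and -2.90 with 64. Ugt2b37 fell by 1.84, Ugt2b1 fell by 1.56 and Ugt2b5 fell by 0.95. Of 12 sulfotransferases, 3 rose and 2 fell. Sult1a1, the main phenol sulfotransferase, rose by 1.54, next to Sult2a2 and Sult1e1 above. Sult2a8 fell by 1.65 and Sult5a1 fell by 1.98.

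Metallothioneins, small proteins that bind zinc and copper and scavenge radicals, were among the largest rises. Mt1 gave 31513, 44906, 30433, 51211 and 48515 on the dwarf arrays and 1413, 3293, 374, 2007 and 5050.2 on the wild-type arrays (log2 difference 4.49, SE 0.63, adjusted p = 5.38e-06). Mt2 gave 12386, 14692, 11973, 28519.5 and 34663 on the dwarf arrays and 748, 796, 737, 1315 and 1097 on the wild-type arrays (log2 difference 4.32, SE 0.50, adjusted p = 1.81e-07). Each dwarf value of both genes was over 6 times the highest wild-type value of that gene. Of 25 genes of metal and iron handling, 4 rose and 1 fell. Atp7b, the copper pump, rose by 0.58 on 1 probe set, and the mean of its probe sets, at 0.15, did not pass. Slc30a10, a manganese exporter, fell by 1.16. Of 21 antioxidant genes, 5 rose and 1 fell. With median centring 2 rose and 1 fell, and 2 of the 5 rises and 0 of the 1 fall passed in all 10 fits without 1 array. Catalase Cat (-0.18) and the dismutase Sod1 (0.03) did not pass, while Selenbp1 rose by 1.11 and the mitochondrial thioredoxin Txn2 by 0.73.

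Many chaperones of the endoplasmic reticulum fell. They fold secreted proteins, and the unfolded protein response raises them when folding falls behind. Of 23 genes of this response tested, 10 fell, 1 rose and the median was -0.44. Hspa5, the main chaperone BiP, gave 11247, 14937, 12873, 10535 and 11445 on the dwarf arrays and 17582, 25919.8, 22366, 14020.0 and 26616 on the wild-type arrays (log2 difference -0.77, SE 0.18, adjusted p = 0.00378). Its ranges overlapped, since dwarf replicate 2 lay above wild-type replicate 4. The secreted factor Creld2 gave 714, 806, 791, 569.9 and 806 on the dwarf arrays and 1639.9, 3433, 1462, 847 and 3766 on the wild-type arrays (log2 difference -1.38, SE 0.36, adjusted p = 0.0107), with no overlap. Calr, calreticulin, gave 14569, 19626, 15829, 15198 and 14955 on the dwarf arrays and 26169, 23762, 25364, 20067 and 24889 on the wild-type arrays (log2 difference -0.59, SE 0.11, adjusted p = 0.000327), again without overlap, though the highest dwarf value was close to the lowest wild-type value.

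The co-chaperone Sdf2l1 fell by 1.48, the survival factor Manf fell by 1.11, Dnajb11 fell by 0.88, Dnajb9 fell by 0.70, Sel1l fell by 0.70, the oxidoreductase Pdia3 fell by 0.70, and calnexin, Canx, fell by 0.44. All 10 falls kept their call without any 1 array. Pdia6 (-0.58, adjusted p = 0.051) did not pass, but did without wild-type replicate 4 (-0.77, adjusted p = 0.00433). Hsp90b1 (-0.19), Xbp1 (-0.41), Atf4 (-0.20) and Ddit3 (-0.03) did not pass. Trib3, a pseudokinase induced by ATF4, was the member that rose, with 697, 738, 590.4, 765 and 501 on the dwarf arrays and 91.4, 213, 201, 262 and 189 on the wild-type arrays (log2 difference 1.75, SE 0.29, adjusted p = 8.14e-05), and its groups did not overlap. In the cytosol, 2 of 12 heat shock genes fell, among them Hspb1 (-1.10).

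The promoters of several of these chaperone genes hold the endoplasmic reticulum stress element, to which ATF6 is known to bind with NF-Y. Its letters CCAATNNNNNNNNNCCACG were searched on both strands in the 250 bases before each start in the same RefSeq promoters (GRCm38.p6). The element was found in 35 of 27025 genes with a promoter, or 0.13%, again counting any window of a gene. Of the genes tested, 16 of 12339 with a promoter held it. Among genes with a promoter, 7 of 557 that fell (1.26%) and 0 of 674 that rose held it. The 7 were Acnat2, Calr, Canx, Creld2, Ero1b, Hspa5 and Syvn1, of which 4 are members of the unfolded protein response list. Of the 20 genes of that list with a promoter, 7 held it (35%), and 3 of these 7, Dnajc3, Hsp90b1 and Pdia6, did not pass the test. Hspa5 (chr2:34771840-34772089, plus strand), Creld2 (chr15:88819396-88819645, plus strand) and Calr (chr8:84846932-84847181, minus strand) are printed because the falls above turn on them, each 5′ to 3′ toward its gene with the element in capitals.
Hspa5: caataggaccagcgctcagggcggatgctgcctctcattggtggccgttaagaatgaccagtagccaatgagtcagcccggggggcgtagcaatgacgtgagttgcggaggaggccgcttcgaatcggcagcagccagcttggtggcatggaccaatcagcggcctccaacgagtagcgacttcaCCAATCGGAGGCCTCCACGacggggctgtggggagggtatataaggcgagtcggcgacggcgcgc
Creld2: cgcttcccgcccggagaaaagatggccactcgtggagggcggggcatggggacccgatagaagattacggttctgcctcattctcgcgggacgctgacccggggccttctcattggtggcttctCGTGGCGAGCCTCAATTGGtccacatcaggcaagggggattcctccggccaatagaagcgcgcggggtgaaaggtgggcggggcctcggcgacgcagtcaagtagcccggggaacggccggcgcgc
Calr: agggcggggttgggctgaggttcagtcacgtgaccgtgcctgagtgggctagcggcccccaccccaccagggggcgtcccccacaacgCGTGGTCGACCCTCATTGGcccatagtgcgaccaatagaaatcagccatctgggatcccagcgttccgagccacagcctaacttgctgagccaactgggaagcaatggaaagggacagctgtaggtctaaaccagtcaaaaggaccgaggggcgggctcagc
The element starts 65, 126 and 162 bases before the 3 starts and reads on the opposite strand in Creld2 and Calr. A match describes the letters in the window, and factor binding was not measured.

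Of 33 genes of complement and coagulation, 10 fell and 4 rose. The late complement components, which assemble the membrane attack complex, were prominent among the falls. C9 gave 11210.3, 9472, 9042, 5534 and 9449 on the dwarf arrays and 37926, 40302, 32968, 24598 and 34827 on the wild-type arrays (log2 difference -1.95, SE 0.27, adjusted p = 5.09e-06) and C8a gave 1955, 3410.0, 3976, 709 and 1296 on the dwarf arrays and 12749, 15617, 16039, 5577 and 14126 on the wild-type arrays (log2 difference -2.65, SE 0.39, adjusted p = 1.39e-05). Neither gene's groups overlapped, and wild-type replicate 4 was the lowest wild type for both. C6 fell by 1.51, C8b fell by 1.35, C8g fell by 0.71 and the lectin Mbl1 fell by 0.79. Of clotting factors, F11 fell by 1.56, F12 fell by 0.56 and F9 fell by 0.50. The 4 rises, F2, Kng1, Serpind1 and Serpinf2, were each lost in some fit without 1 array, and 0 of 33 rose without dwarf replicate 5 or without wild-type replicate 4. Of 24 acute phase genes 4 rose and 3 fell, among them the endotoxin receptor Cd14 (1.76) and the lower Orm1 (-0.94) and Crp (-0.63).

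The clock gene Per1, which is also induced by glucocorticoids, rose, with 345, 545, 221, 1436 and 577 on the dwarf arrays and 68.5, 49.5, 145, 80.3 and 68.3 on the wild-type arrays (log2 difference 2.49, SE 0.51, adjusted p = 0.000943). Its groups did not overlap. Of 19 clock genes 5 rose and 1 fell, and 2 of the 5 rises, Per1 and the clock output Tef (0.99), were kept without any 1 array. Usp2 (2.57), Per3 (0.96) and Cry2 (0.65) also rose. The fall was that of Clock (-0.69, adjusted p = 0.04), which lost its call in at least 1 of these fits. Arntl (-0.71), Nfil3 (-0.76), Npas2 (-0.86) and Cry1 (-0.87) were lower too but did not pass. Dbp, another clock output, read 3148, 5194, 579, 5299.6 and 4456 on the dwarf arrays and 534, 1066, 547, 468 and 1964 on the wild-type arrays and did not pass (1.90, adjusted p = 0.0641). Dwarf replicate 3 was far below the other dwarf arrays at Dbp, and without it the log2 difference was 2.48 with an adjusted p of 0.0114. The summed signal of the clock list was 15593 on that array and 25130.5 to 30996 on the other 4 dwarf arrays, against 15619 to 18934 on the wild-type arrays. Dbp itself, Rora and Tef had the highest dwarf signals of the list and weigh most in this sum. The sum is therefore not separate from the Dbp values. The time of day of collection is not given in the labels, and its part in these values was not tested.

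Genes of growth arrest and autophagy changed at 9 of 25, with 6 rises and 3 falls. Gadd45b, a stress-induced growth arrest gene, gave 652, 523, 831, 430.1 and 555 on the dwarf arrays and 104, 28.3, 141, 144 and 79.1 on the wild-type arrays (log2 difference 2.52, SE 0.38, adjusted p = 2.10e-05). Its groups did not overlap, but its other probe sets, tested on their own, gave 0.25 and 1.04 and did not pass. Gabarapl1, an autophagosome protein, rose by 0.84, and Deptor, an inhibitor of mTOR, fell by 0.64. Of 25 proliferation genes 4 rose and 0 fell, and 1 of the 4 passed in all 10 fits without 1 array. Without dwarf replicate 3, 2 rose. Pcna, the clamp of DNA polymerase, rose by 0.74.

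Markers of the liver's zones did not move as blocks. Of 13 periportal genes 5 rose and 3 fell, and of 17 pericentral genes 3 rose and 2 fell. The periportal gene Hsd17b6, which acts on androgens, gave 11972, 12083, 11806, 16847 and 14094 on the dwarf arrays and 850.4, 5687, 937, 741 and 2476 on the wild-type arrays (log2 difference 3.10, SE 0.48, adjusted p = 2.58e-05), while Cyp2f2 fell as described. In the pericentral zone Glul, glutamine synthetase, gave 6619.8, 7025, 8402, 7419.8 and 6052 on the dwarf arrays and 10294, 16223, 9848, 10121 and 12922 on the wild-type arrays (log2 difference -0.72, SE 0.13, adjusted p = 0.000147), without overlap. Fitted on the 10 arrays of 4 months alone, Glul did not pass (adjusted p = 0.196). Its neighbours Cyp2e1 (0.03) and Cyp1a2 (0.61) did not pass, and without wild-type replicate 4 Cyp1a2 gave 0.22.

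Summed signals of several lists of cell type markers were higher in dwarf. Of 14 genes of sinusoidal endothelium 4 rose, Fcgr2b by 0.92, Oit3 by 0.86, and the scavenger receptors Stab2 and Stab1 by 0.77 and 0.75. Stab2 gave 1517, 1577, 1658, 1437 and 1367 on the dwarf arrays and 911, 843, 744, 831 and 1092 on the wild-type arrays, without overlap. The summed signal of the 14 genes was 15309.8 to 19192 in dwarf and 11161 to 14168 in wild type. For stellate cells 3 of 18 rose, Sparc (0.93), Pdgfrb (0.81) and Dcn (0.53), and the sum was 21700.0 to 29513 against 17487 to 21092. Dcn had the highest signal of the list and weighs most in the sum, with means of 7202 in dwarf and 5018 in wild type. The markers Lrat (0.26), Col1a1 (0.92), Acta2 (0.04) and Des (-0.46) did not pass. With median centring 1 of the 18 rose, and in a fit of the 10 arrays alone 1 of 17 rose. Of the 3 rises, 1 passed in all 10 fits without 1 array. On the lymphocyte list 4 of 19 rose and 1 fell, and the sum was 8589 to 10069 against 5863 to 7764. Of the 4 rises, 3 were genes of MHC class II and its invariant chain, which B cells share with macrophages and dendritic cells. These were H2-Aa (1.11), H2-Ab1 (0.88) and the invariant chain Cd74 (0.65), and the other was the immunoglobulin gene Igha (0.88). The class II gene H2-Eb1 (0.49, adjusted p = 0.128) did not pass. Cd74 and Igha each lost their call in most fits without 1 array, and with median centring 2 of the 19 rose. The immunoglobulin gene Ighm fell (-1.57, adjusted p = 0.00526), though the mean of its probe sets, at -0.22, did not pass. The T cell genes Cd3e (0.14), Cd3g (0.08) and Cd2 (-0.11) and the B cell genes Ms4a1 (0.15) and Cd79a (0.51) did not pass. The 15 genes other than H2-Aa, H2-Ab1, H2-Eb1 and Cd74 were a group formed after the values were seen. They summed to 3351 to 4107 in dwarf and 2820.0 to 3959 in wild type, which overlap. The sums of the 3 full lists were higher on every dwarf array than on any wild-type array. For Kupffer cells 1 of 16 rose and the sums overlapped, at 21489.8 to 26987 and 16038 to 27064. Of the bile duct genes 1 of 9, Krt23, rose, and its defining marker Krt7 (0.52) was a low signal on all wild-type arrays. The sum of these 9 was 2894 to 4171 in dwarf and 1573 to 2195 in wild type, without overlap, and that of the 8 genes other than Krt23 was 1602 to 2398 and 1425 to 2148, which overlap. The sum of the 25 proliferation genes, 9954 to 13724 in dwarf and 7693 to 9895 in wild type, did not overlap either.

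Among 11 neutrophil and bone marrow genes Alas2, the first enzyme of haem synthesis in red cell precursors, was the 1 that fell, with 2878, 2033, 1619, 1579 and 1839 on the dwarf arrays and 8002, 5290.4, 7273, 5967 and 5669.9 on the wild-type arrays (log2 difference -1.70, SE 0.34, adjusted p = 0.000715). S100a8 (0.65) and S100a9 (1.26), which define neutrophils, did not pass, though S100a9 did without dwarf replicate 3 (1.56, adjusted p = 0.0287). The sum of that list was 3924 to 5999 in dwarf and 7367 to 10082 in wild type. Without Alas2, left out after the values were seen, the sums of the other 10 genes overlapped, at 2305 to 3208 in dwarf and 2076 to 2919 in wild type. Of the 6 pancreas genes tested 1 fell, and of 7 fat and muscle genes 0 passed. The part of these markers in the results above was not tested.

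**Figure D4:**
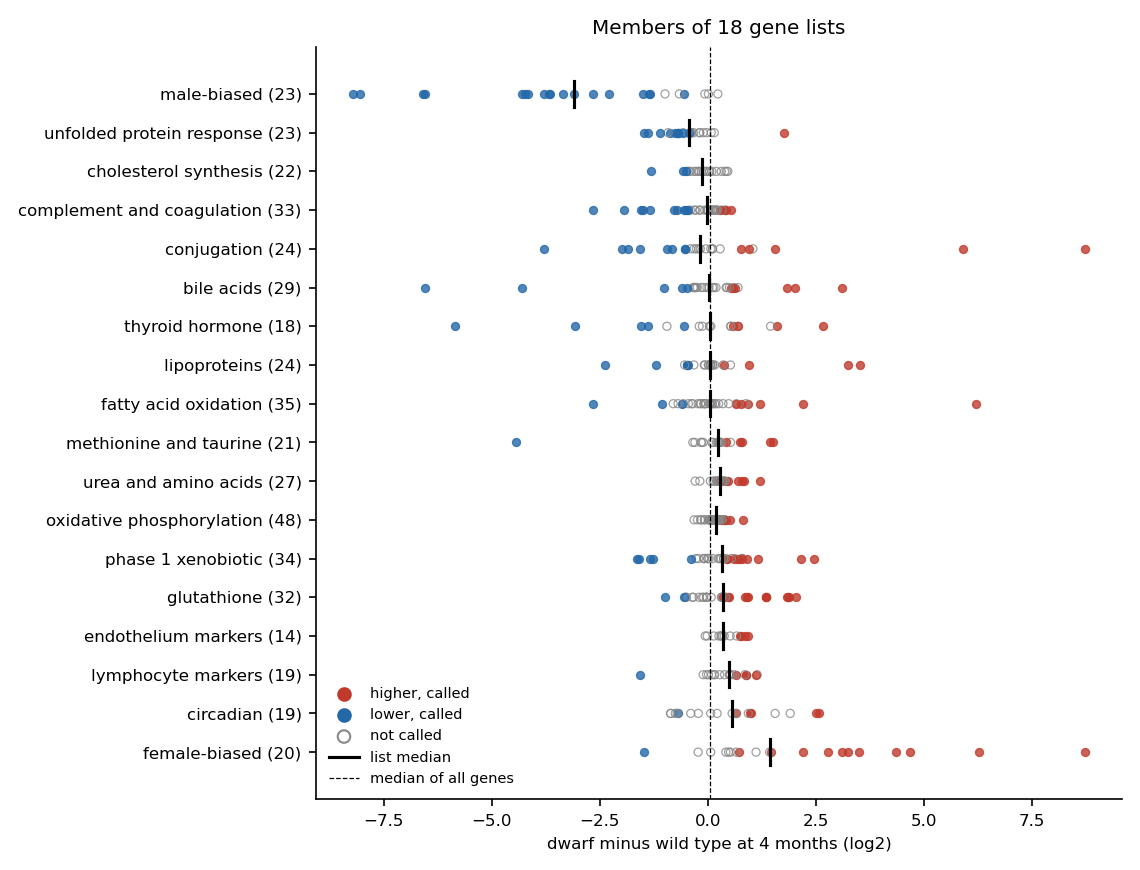
Difference of each tested gene at 4 months (dwarf minus wild type, log2, horizontal axis) in 18 of the gene lists, with the number tested in brackets, 1 point per gene, filled where it passed the test, a bar at the list's median and a dashed line at the median of all genes. The medians run from -3.10 for male-biased genes to 1.44 for female-biased genes, with -0.44 for the unfolded protein response and 0.34 for glutathione genes.

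The genotype difference of 4 months was then set against those of 10 and 22 months, which come from other animals. Against 10 months, 0 of 15421 genes (0%) passed limma's test of the difference between the differences, with 1001 genes at an unadjusted p under 0.05. Against 22 months 60 genes (0.389%) passed, 20 with a more positive difference at 4 months (0.13%) and 40 with a more negative one (0.259%), out of 1731 at an unadjusted p under 0.05. The number of passing genes was 122 without the 4 arrays of older mice with Xist above 1000.

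The 15 largest rises and 15 largest falls of 4 months were all smaller in size at 22 months, and 9 and 12 of them were smaller at 10 months. The 15 largest rises had a median of 4.49 at 4 months, 4.42 at 10 months and 2.60 at 22 months, and the 15 largest falls had -4.44, -4.45 and -2.97. These genes were chosen by their size at 4 months, so their medians at the other ages are given as a description. In the test between 4 and 22 months 1 of the 15 rises and 4 of the 15 falls passed. In that between 4 and 10 months 0 of either passed. Some wild-type groups of 22 months spread widely. The wild-type mean of Sult2a2 was 4860 there (standard deviation 11831) and 61.0 at 10 months. For Cyp2b13 it was 2881 (6354) and 321, but for Cyp4a14 only 402 (579) and 201. The 4 arrays of older mice with Xist above 1000 were kept in these medians, and their part in them was not tested. Of the 15 rises 13 passed the same way at 10 months and 11 at 22 months, and of the 15 falls 15 and 14 did. Rgs16 and Serpinb1a were rises that passed at neither later age.

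Among the genes whose difference changed by 22 months, Mup10 went from -8.05 at 4 months to -4.55 at 22 months (difference of the differences -3.50, adjusted p = 0.00504) and Nat8 from -3.35 to -0.44 (-2.91, adjusted p = 0.0155). Igfals went from -3.17 to -1.26 (-1.92, adjusted p = 0.00504) and Csad from -4.44 to -2.09 (-2.34, adjusted p = 0.00504). Paqr9 went from -3.93 to -1.28 (-2.65, adjusted p = 0.00927). Cyp2f2 went from -1.27 to -0.22 (-1.05, adjusted p = 0.00504). Igf1 went from -3.19 to -1.54 (-1.65), with an adjusted p of 0.0384 that ran to 0.0905 over its alternatives. Apoa4 (-1.80, adjusted p = 0.0356), Trib3 (1.87, adjusted p = 0.0307) and Crym (1.07, adjusted p = 0.0197) also passed, as did Glul (-0.76, adjusted p = 0.0396) and Gstp3 (1.07, adjusted p = 0.0175), and each of these 5 lost its call under some alternatives.

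Of the genes ranked highest in this test, Gpr37, an orphan G-protein coupled receptor, went from 1.87 to -1.73 (3.59, adjusted p = 0.00894) and Tmem126b, a complex I assembly factor, from 1.56 to -0.32 (1.88, adjusted p = 0.0175). Nkain4 went from -2.19 to 1.24 (-3.44, adjusted p = 0.0175). The rest of the 6 largest in each direction were Gm12758 (2.83), the cytokine subunit Ebi3 (2.53), Lpl (2.40), the nucleotide receptor P2ry6 (2.38), Wfdc21 (-4.16), the phosphate transporter Slc34a1 (-2.81) and Lrp11 (-2.67). Each of these 7 lost its call in at least 1 fit without 1 array of 4 months. Lpl, for one, was 3.52 at 4 months, 2.62 at 10 and 1.12 at 22.

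**Figure D5:**
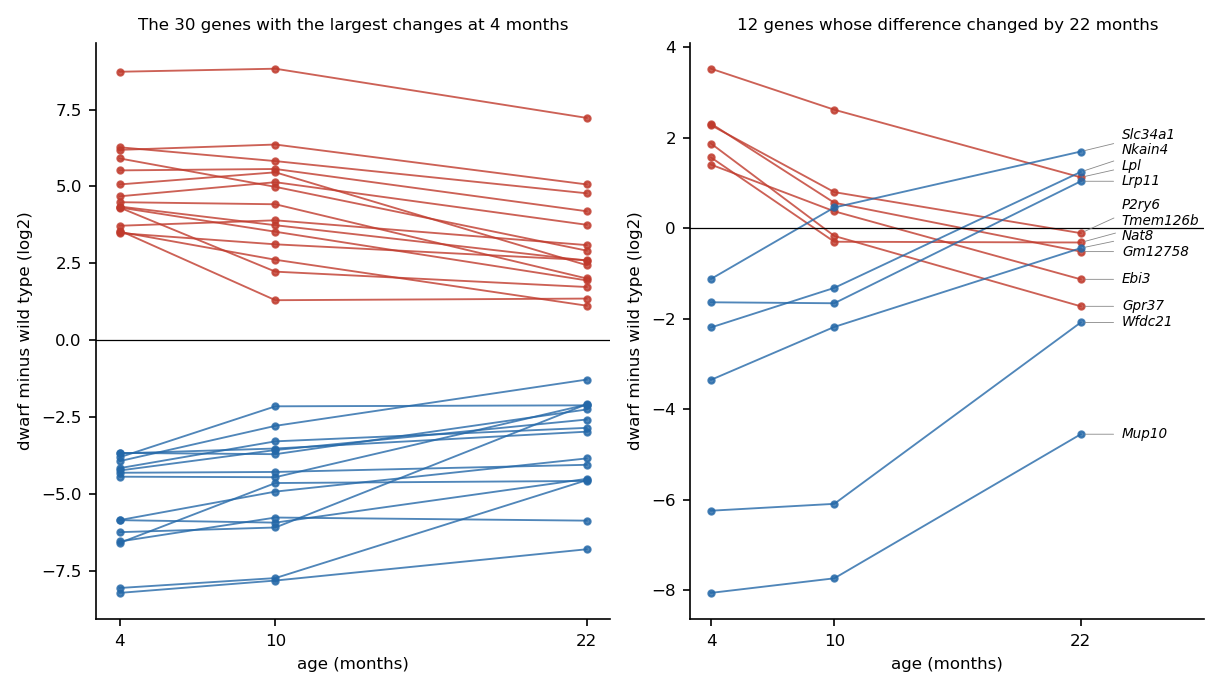
Genotype difference (dwarf minus wild type, log2, vertical axis) at 4, 10 and 22 months (horizontal axis, to scale), 1 line per gene, for the 30 largest changes of 4 months (left) and, among genes whose difference changed by 22 months, the 6 with the largest change in each direction (right). On the left all 30 values lie nearer 0 at 22 than at 4 months, and on the right Slc34a1, Nkain4 and Lrp11 go from below to above 0 and Gpr37, Gm12758, Ebi3, P2ry6 and Tmem126b from above to below 0.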

How the data were processed

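RNA of mouse liver was hybridised to Affymetrix arrays, and each array's label names a separate animal. The 4-month groups hold 5 dwarf and 5 wild-type arrays, out of 31 arrays in 6 groups. The labels' description speaks of a fly tissue, against mouse liver in their organism, source and title, which were followed. The deposited values are signal intensity on a linear scale, made by the authors with MAS5 per the submitters' processing notes. For MAS5, no version is stated in the labels. Precision is limited by the number of arrays. Of 45037 probe sets 34945 had 1 gene symbol in the platform annotation, 932 had several and 9160 had none and were left out of gene-level results.

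Each array was scaled to a 2% trimmed mean of 500, by factors of 1.008 to 1.011. Tests used log2(signal + 16), a scale that understates differences of genes with low signal. A probe set was tested when above the 40th percentile of its array on at least 5 of the 31 arrays. Each of the 15421 genes was represented by its probe set of highest mean log2 signal. A limma model (version 3.58.1, R 4.3.3) with 1 mean for each of the 6 groups and a trended prior variance gave p-values, which were adjusted across all genes by Benjamini-Hochberg and compared with 0.05. Differences between ages are contrasts of the same fit.

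The 41 lists hold 917 distinct genes, of which 815 have a named probe set and 788 passed the filter. The genes, lists and comparison were chosen with earlier results of these data known. Genes named are the 15 largest rises and 15 largest falls at 4 months among those that passed with groups that did not overlap, the 6 largest in each direction of each comparison between ages, members of the lists and of gene families, and control genes. Acnat2, Ero1b and Syvn1 are named for a promoter motif, after their values were seen. The Y-linked genes besides Eif2s3y and further members are not described here. Alternatives covered scaling, pseudocount, filter, probe set rule, variance model, the arrays fitted and leaving out each array of 4 months. The scripts were tested on simulated data. Promoters are RefSeq sequences of GRCm38.p6, matched by symbol for 12339 of the 15421 genes. No value column was left unused.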

Additional observations from a re-analysis of the deposited data

Results flagged for a closer look

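Arrays were looked for that lay far from the other 4 of their group, by the gap to the nearest array over the range of the group. Of 424 groups of 5 examined over most of the genes named, 28 held such an array. Over all genes 6.94% of the groups did, and chance gives about 1 in 20. Wild-type replicate 4 accounted for 13 of the 28. It was low for Hsd3b5 at 506.9 (other wild types 10695 to 17418), Slco1a1 at 3754, C8a at 5577, the aldehyde oxidase Aox3 at 8427, the pericentral P450 Cyp1a2 at 6789 (others 23773 to 29373), Oat at 9865, Sult2a8 at 15174 and the endothelial receptor Fcgr2b at 1160.3. It was high for Cd14 at 206.2, Serpinb1a at 129.8, Igf2 at 290.0, the lipogenic enzyme Fasn at 15818 and Pklr at 10083.

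Other wild-type arrays stood apart at 5 of these genes. Replicate 1 read 679.6 for Atp7b and 4904.3 for Shmt1, replicate 2 read 539.7 for Cux2, replicate 3 read 2707 for Gstt2 and replicate 5 read 23.3 for Ebi3. Among dwarf arrays, replicate 3 was low for the clock gene Dbp at 579.2 (others 3148 to 5300) and for Pklr at 1294. Dwarf replicate 2 was high for Calr at 19626 and low for Igfals at 170.9 and Igfbp3 at 495.3. Dwarf replicate 4 was low for Nqo1 at 355.1 and Cyp4f14 at 900.6. Dwarf replicate 5 was high for Foxa1 at 1047 and Gclc at 13870.0, and dwarf replicate 1 was low for Tmem126b at 204.8.

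The genotype difference at 4 months differed from that at 22 months, by limma's test of the difference between them, at 22 of the genes named. It was more positive at 4 months for Gpr37 (by 3.59), Gm12758 (2.83), Ebi3 (2.53), Lpl (2.40), P2ry6 (2.38), Tmem126b (1.88), Trib3 (1.87), Crym (1.07) and Gstp3 (1.07). It was more negative for Wfdc21 (-4.16), Mup10 (-3.50), Nkain4 (-3.44), Nat8 (-2.91), Slc34a1 (-2.81), Lrp11 (-2.67), Paqr9 (-2.65), Csad (-2.34), Igfals (-1.92), Apoa4 (-1.80), Igf1 (-1.65), Cyp2f2 (-1.05) and Glul (-0.76).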

How the results depend on the processing

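No paired analysis was possible because replicate numbers were given in accession order and name different animals in each group. At 4 months the 1538 passing genes became 1214 with median centring to 1575 with a filter at the 60th percentile over the alternatives by gene, and 1323 to 1507 without 1 array. Of the rises 490 of 862, and of the falls 419 of 676, passed in all 10 fits without 1 array. The 234 passing genes of the lists became 194 to 251, and 205 to 222 without 1 array. The test against 10 months gave 1 gene when each probe set was tested on its own and 1 without the 4 arrays with Xist above 1000, and 0 to 1 without 1 array. The test against 22 months gave 60 genes, 34 with quantile normalization, 37 when a gene's probe sets were averaged, 122 without the 4 arrays with Xist above 1000, 22 with no trend, and 24 to 55 without 1 array. Among lists whose counts moved by over 1.5 times, the falls in lipoprotein genes went from 5 to 3 and the rises in growth arrest and autophagy from 6 to 3 with median centring, and without 1 array the rises in thyroid hormone genes were 2 to 4, in clock genes 2 to 6 and in oxidative phosphorylation 2 to 5, and the falls in fatty acid synthesis were 3 to 4 and in cholesterol synthesis 1 to 4. The cause of these shifts was not tested. For the 234 differences of single genes followed one by one, 5610 of 5831 fits kept both the direction and the side of the threshold, 185 lost a call, 36 gained one and 0 reversed. The limits are the 5 arrays per genotype, low signals whose log2 size depends on the added constant, and labels without batch, sex or collection time.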

Other observations

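Aldehyde dehydrogenases, which clear aldehydes made from lipids, amino acids and folate, changed at 6 of 18 genes. Of these 4 rose and 2 fell, with a median of 0.16 against 0.04 for all genes. Aldh1b1, a mitochondrial form, rose, with 3182, 4021, 2633, 2491 and 3449 on the dwarf arrays and 1562, 1478, 1292, 1692 and 1428 on the wild-type arrays (log2 difference 1.06, SE 0.15, adjusted p = 5.46e-06). Aldh16a1 rose by 0.96, the folate enzyme Aldh1l1 by 0.70 and Aldh4a1, which acts on proline breakdown, by 0.60. Among 11 hydroxysteroid dehydrogenases of the Hsd17b family, 3 rose and 2 fell. Hsd17b13, a protein of lipid droplets, rose by 1.28, and Hsd17b2, which inactivates estradiol and testosterone, fell by 1.24. Each of these 6 genes passed in all 10 fits without 1 array of 4 months.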
